A study of Torulaspora delbrueckii with 9 samples.

Results

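A set of 10 histone genes of the budding yeast Torulaspora delbrueckii was examined together with the sites of the origin recognition complex (ORC) around them. The genes are HHF1, HHF2, HHT1, HHT2, HTA1, HTA2, HTB1, HTB2, HTZ1 and HHO1, taken by symbol from the RefSeq annotation of assembly ASM24337v1, where they make up 10 of 5174 genes. Every ChIP-seq peak within 10 kb of one of them was included, which gave 46 of the 1900 peaks listed for 6 immunoprecipitates. Those 46 peaks contained 5 of the 198 sites that had a peak in all 6 lists. A site here is a stretch covered by peaks of different lists that overlap by at least 1 bp.

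Cultures grown at 30 °C were fixed with 1% formaldehyde for 1 hour, and chromatin was precipitated from strains carrying 1 tagged ORC subunit. Orc1 carried a MYC tag (strains LRY3204 and LRY3211), Orc2 a V5 tag (LRY3142 and LRY3143) and Orc4 a V5 tag (LRY3138 and LRY3139), with 2 libraries for each. The untagged strain JRY10156 supplied 2 genomic inputs and 1 mock immunoprecipitate. The control named in the peak names is an input for Orc1 and the mock for Orc2 and Orc4. Peak names of the Orc1 lists also contain the word SIR in library 1 and Kos3V5 in library 2, without explanation in the labels. Subunit, tag, antibody and control therefore cannot be told apart between Orc1 and the other subunits. The libraries of each subunit are described as technical replicates in the series' design although their strain numbers differ, so p-values below measure a spread that may be technical.

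ORC binds replication origins and loads the helicase that later opens the DNA for copying. Histones package the copied DNA, and in Saccharomyces cerevisiae their genes are transcribed around the start of S phase. In that yeast the core histone genes stand in pairs, H2A beside H2B and H3 beside H4, with the 2 genes of a pair transcribed away from each other. Roles given below are those of the S. cerevisiae genes of the same name. The annotation used gives no strand, so the promoter side of a gene was not assigned.

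The core histone genes of T. delbrueckii also stood in 4 neighbouring pairs. HHF1 (histone H4, locus tag TDEL_0D04280, positions 785423 to 785734) and HHT1 (histone H3, TDEL_0D04290, 786230 to 786640) lay 495 bp apart on chromosome 4. HTA2 (histone H2A, TDEL_0D04140, 761526 to 761924) and HTB2 (histone H2B, TDEL_0D04150, 762423 to 762821) lay 498 bp apart on the same chromosome, and 22.6 kb separated these 2 pairs. The other H2A and H2B genes, HTA1 (TDEL_0B01970, 351860 to 352258) and HTB1 (TDEL_0B01980, 352747 to 353148), lay 488 bp apart on chromosome 2. The other H3 and H4 genes, HHT2 (TDEL_0G02280, 444169 to 444579) and HHF2 (TDEL_0G02290, 444898 to 445209), lay 318 bp apart on chromosome 7. The single genes were HTZ1, for the H2A variant H2A.Z (TDEL_0G04260, chromosome 7, 773903 to 774298), and HHO1, for the linker histone (TDEL_0A05750, chromosome 1, 1015446 to 1016219). All 6 loci lay at least 172 kb from the nearest chromosome end, measured to the last gene or peak.

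A site in all 6 lists lay within 10 kb of 9 of the 10 histone genes, against 44.5% of all annotated genes. The 10 genes form 6 loci, and genes of a pair share a site, so the 9 genes correspond to 5 loci and not to 9 separate observations. All 4 histone pairs had such a site within 10 kb, against 47.4% of all neighbouring gene pairs. Within 1000 bp there were 3 of the 10 histone genes, HHF1, HHT1 and HTB2, against 11.2% of all genes. That count rests on the edges of the sites. Measured to the mean summit, HHF1 was 247 bp away, HTB2 1053 bp and HHT1 1054 bp, so only HHF1 stayed within 1000 bp. The median distance was 1.96 kb for the 10 histone genes and 11.7 kb for the 5164 others. No test was made of these shares.

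The distances fell into separate ranges. The HHF1-HHT1 pair was overlapped by its site, the HTA2-HTB2 pair lay 664 bp from its site, and the HTA1-HTB1 pair lay 1479 bp away. The second H3 and H4 pair, HHT2-HHF2, lay 9002 bp from its site and HTZ1 9059 bp, both just inside the 10 kb limit. HHO1 was the exception, at 31.7 kb, and its nearest peak of any list was one of Orc4 library 1 at 16.8 kb. The median over the 6 loci was 5240.5 bp. With a window of 5 kb the count fell to 3 loci, and with distances taken to the mean summit it was 4, since HTZ1 was then 10043.5 bp away.

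**Figure D1:**
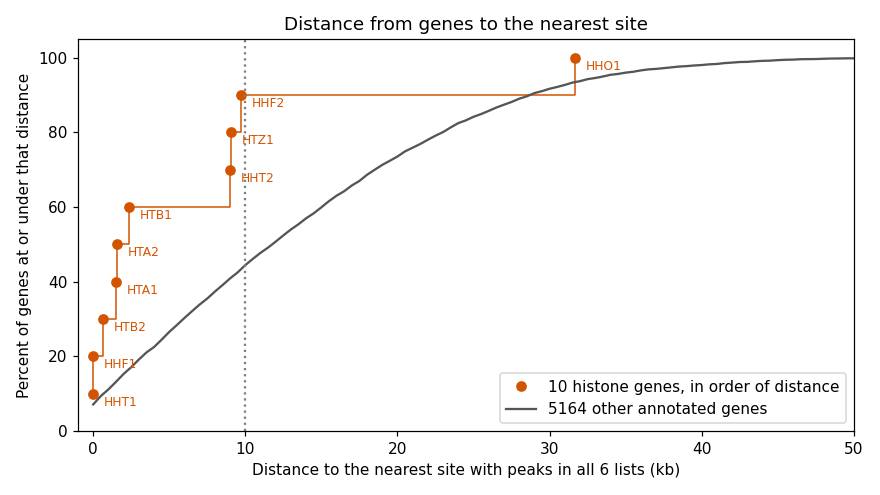
Percent of genes (vertical axis) at or under a given distance in kb (horizontal axis) from the nearest site with peaks in all 6 lists, for the 10 histone genes (points, stepped line) and 5164 other annotated genes (smooth line); the dotted line marks 10 kb. Of the histone genes, 6 sit at 2366 bp or less, 3 sit between 9002 and 9731 bp, and HHO1 sits at 31.7 kb.

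**Figure D2:**
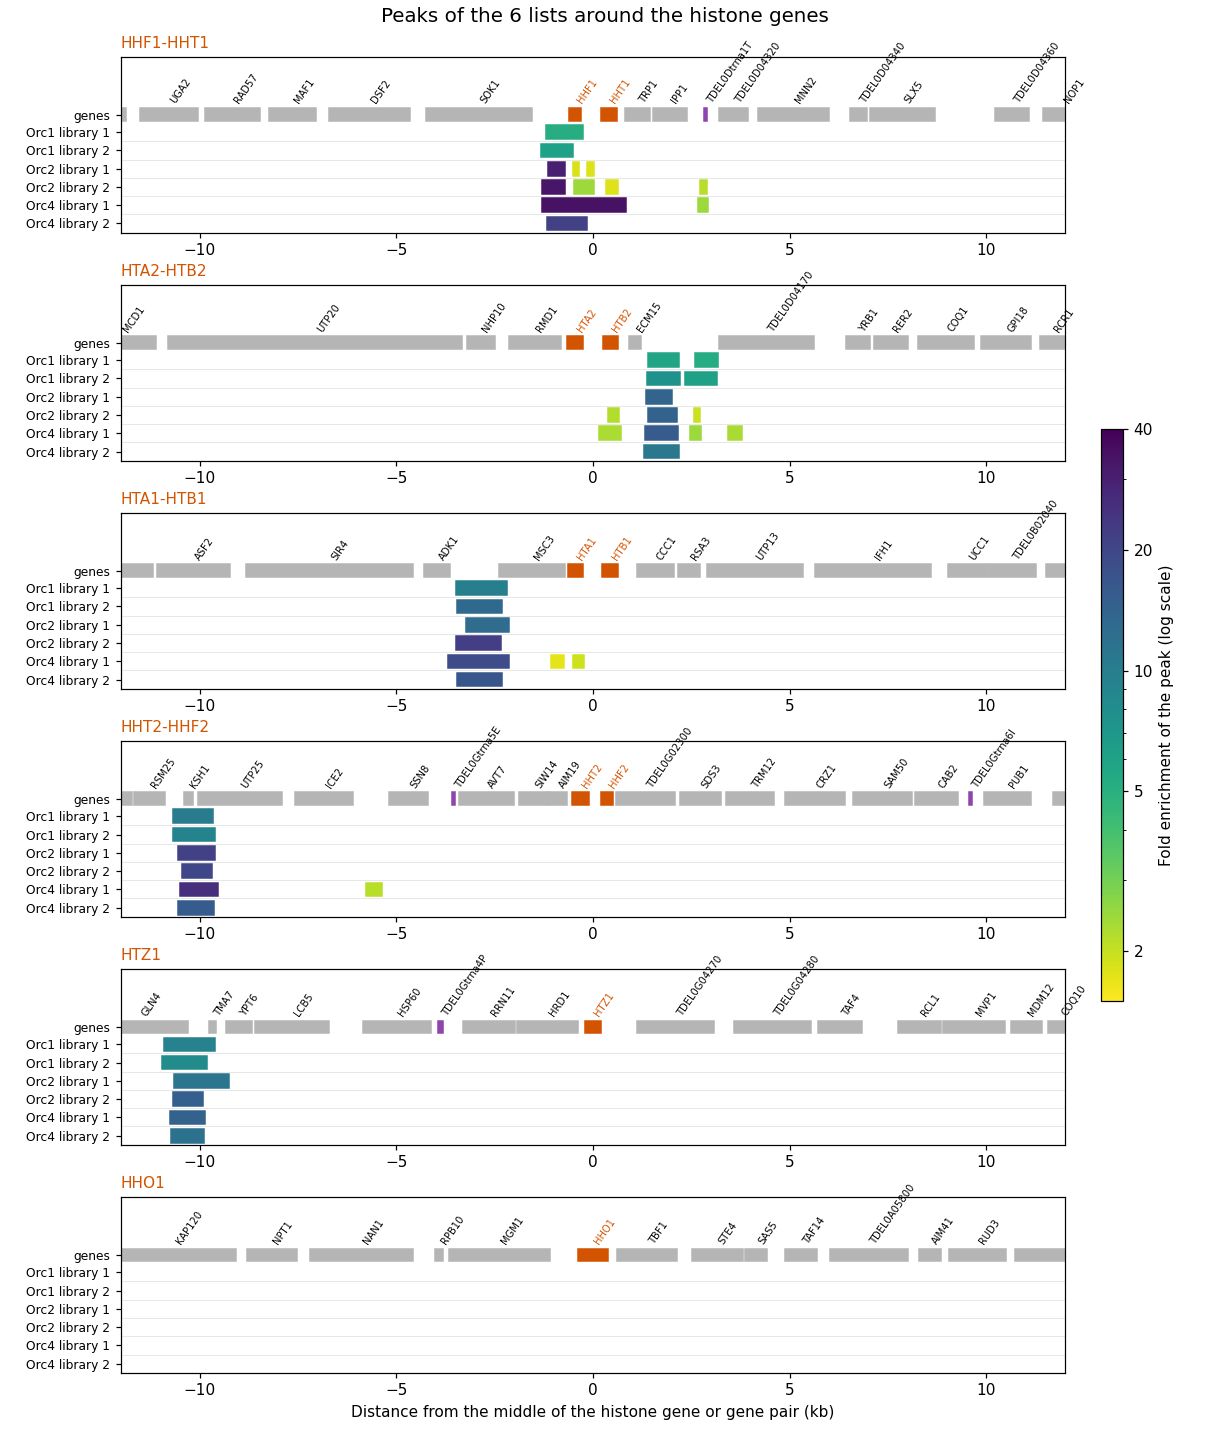
Peaks of each list (rows, Orc1 on top) and annotated genes (histone genes in orange, tRNA genes in purple, others in grey) around each histone locus, by distance in kb from the middle of the locus. The shade gives each peak's fold enrichment over that list's control. Stacks of peaks through all 6 rows are the 5 sites, and the HHO1 panel holds no peak. Peaks outside the stacks are in 1 to 4 lists and are weaker, except the 2 Orc1 peaks to the right of the HTA2-HTB2 stack. Those have 5.32 and 6.20, close to the Orc1 values of 5.17 and 6.22 in the HHF1-HHT1 stack. The pale Orc2 peaks over and between HHF1 and HHT1 belong to the site there.

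The strongest of the 5 sites in the Orc2 and Orc4 lists was the one at HHF1 and HHT1, and in the Orc1 lists it was the weakest of the 5. It spanned positions 784713 to 786875 of chromosome 4. Fold enrichment, the authors' ratio of immunoprecipitate to control at the summit, was 5.17 and 6.22 in the Orc1 lists. It was 30.1 and 33.0 in the Orc2 lists and 34.4 and 21.3 in the Orc4 lists. All 6 summits fell within 785157 to 785190, between SOK1 and HHF1, and their mean was 247 bp outside HHF1. The summits were thus on the outer side of HHF1 and not in the 495 bp between HHF1 and HHT1.

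Because Orc1 values are relative to input and the others to the mock, levels were compared by standing within a list. The percentile of a site is the percent of the other sites in all 6 lists with lower fold enrichment in that list. The HHF1-HHT1 site stood at 23.9% and 28.4% in the Orc1 lists, and at 88.8%, 90.9%, 88.3% and 78.7% in Orc2 libraries 1 and 2 and Orc4 libraries 1 and 2. Both Orc1 percentiles lay below all 4 others, which was the case at 30.8% of the 198 sites, so the separation itself was common. Its size was at the low end of the range: the mean Orc1 percentile minus the mean of the others was -60.5 points, the lowest of 198 sites. The next lowest was -59.8, the median was 1.02 and the quartiles were -12.2 and 10.3. The highest was 65.9, larger in size and of the opposite sign. The HHF1-HHT1 site was singled out after its values had been seen, and the difference was not tested. The difference was between -53.7 and -64.1 with −log10 q in place of fold enrichment, with −log10 q of at least 10, or with any 1 library left out, and the site was then the lowest or second lowest. The ratio of mean Orc1 to mean Orc2 and Orc4 fold enrichment was 0.1915, the lowest of the 198, beside 0.1924 for the next and a median of 0.498. It divides the same fold values, taken over unlike controls, so it is not a separate observation. Neither measure removes a difference between input and mock at a single site.

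**Figure D3:**
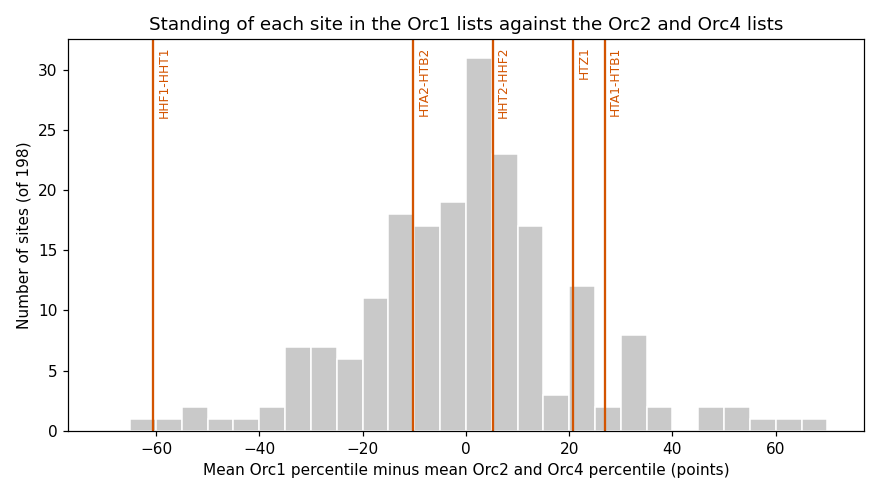
Histogram of the mean Orc1 percentile minus the mean Orc2 and Orc4 percentile, in points, over the 198 sites in all 6 lists, with the 5 sites near histone genes as orange lines. The HHF1-HHT1 site is at -60.5, at the left edge, and the other 4 lie between -10.2 and 26.9.

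Peaks at this site reached different distances into the histone genes. The Orc4 library 1 peak, 2140 bp wide, ran from 784736 to 786875 and covered HHF1 and HHT1 whole. The peak of Orc4 library 2 covered HHF1 and ended at 785894, and so did the peak of Orc1 library 1, which ended at 785776. The peak of Orc1 library 2 ended inside HHF1, at 785526. In the Orc2 lists the main peak stopped at 785314 and 785321, short of HHF1, and was followed by 2 weaker peaks in each list. Those had 1.82 and 1.78 in library 1, with summits inside HHF1 and between the genes, and 2.43 and 1.79 in library 2, with summits inside HHF1 and inside HHT1. The summit of library 1 at 786057 was the only one of the 46 that lay between the 2 genes of a histone pair.

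The H2A and H2B pair HTA2-HTB2 had its site on the HTB2 side, at 763485 to 764400, beyond the small gene ECM15 and before TDEL0D04170. Fold enrichment was 5.81 and 7.52 in the Orc1 lists, 14.02 and 14.49 in the Orc2 lists and 15.7 and 10.8 in the Orc4 lists. Each value was below the median of all 198 sites in its list, with ratios to that median from 0.760 to 0.973. Orc1 percentiles were 29.4% and 38.1%, against 38.1% to 48.2% in the other lists, so the ranges touched. Between this site and the one at HHF1-HHT1 lay 20.3 kb with no other site in all 6 lists.

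A second place with Orc1 peaks lay in the same space between ECM15 and TDEL0D04170, at 764522 to 765349. Orc1 library 1 had 5.32 there and library 2 had 6.20, close to their values of 5.81 and 7.52 at the site itself. In contrast, Orc2 library 2 had 1.94 and Orc4 library 1 had 2.45, and Orc2 library 1 and Orc4 library 2 listed no peak. The Orc1 summits were at 765108 and 765109, 1196 bp on average from the Orc1 summits of the site. They were 329 bp on average from the weak Orc2 and Orc4 summits at 764840 and 764719, which lay toward the site. In all, 28 regions had a peak in both Orc1 lists but not in all 4 others, and this one was number 8 among them by the lower Orc1 value.

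The other H2A and H2B pair, HTA1-HTB1, had its site on the HTA1 side, with all summits between MSC3 and ADK1, which encodes adenylate kinase. SIR4, a gene of silent chromatin, is the next gene beyond ADK1, so this is also the site nearest to SIR4. The site spanned 348807 to 350381 of chromosome 2, with 9.87 and 13.2 in the Orc1 lists, 12.7 and 22.0 in the Orc2 lists and 18.8 and 16.7 in the Orc4 lists. Here Orc1 stood high within its lists, at percentiles of 79.2% and 91.4%, against 42.1% to 73.6% in the Orc2 and Orc4 lists. Both Orc1 percentiles were above all 4 others, as at 28.3% of the 198 sites. The mean difference of 26.9 points was in the opposite direction to that at HHF1-HHT1. The 2 Orc2 libraries were apart at this site, with percentiles of 42.1% and 73.6%.

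The second H3 and H4 pair, HHT2-HHF2, had no strong peak nearby. Its nearest site, at 434017 to 435167 of chromosome 7, lay beyond AIM19, SIW14, AVT7, SSN8 and ICE2, over KSH1 and part of UTP25, a gene of ribosome assembly. Fold enrichment there was 10.3 and 9.26 in the Orc1 lists, 21.2 and 19.8 in the Orc2 lists and 25.9 and 15.5 in the Orc4 lists. All 6 values were above the median of sites in their list, and the Orc1 percentiles, 82.2% and 63.5%, overlapped the 60.9% to 73.1% of the others. The H3 and H4 pairs thus differed in their nearest site: 1 pair was overlapped by it and the other was 9002 bp away.

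HTZ1 had its nearest site at 763152 to 764844 of the same chromosome, with the mean summit between GLN4, which encodes a glutaminyl-tRNA synthetase, and TMA7. Orc1 libraries had 9.46 and 8.20 there, Orc2 libraries 11.1 and 14.97, and Orc4 libraries 14.3 and 11.6. The Orc1 percentiles, 76.6% and 45.7%, overlapped those of the others, 32.5% to 50.3%. No other peak of any list lay within 10 kb of HTZ1.

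HHO1 had no peak of any list within 10 kb. It stands beside TBF1, which encodes a general regulatory factor, and no peak was listed at TBF1 either. The nearest site in all 6 lists was at 1047893 to 1049279 of chromosome 1, between TDEL0A05970 and MKK1, where Orc1 had 6.35 and 5.35, Orc2 13.7 and 12.3, and Orc4 15.5 and 10.9. Absence from a list says that no peak passed the authors' threshold there, not that ORC was absent.

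**Figure D4:**
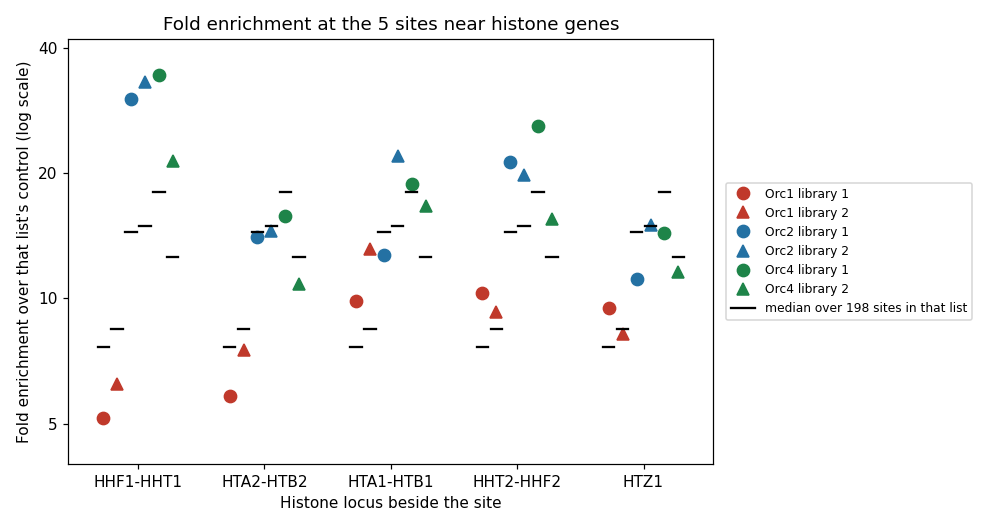
Fold enrichment over that list's own control (log scale) at the 5 sites near histone genes, for library 1 (circles) and library 2 (triangles) of Orc1 (red), Orc2 (blue) and Orc4 (green). Black bars give the median over all 198 sites in the same list. At HHF1-HHT1 both Orc1 points are below their bars and the 4 others above theirs.

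All 5 sites had their mean summit between genes, as did 89.4% of the 198 sites. Single Orc1 summits fell inside a gene at 2 of the 5: both in KSH1 at the HHT2-HHF2 site, and that of library 1 in GLN4 at the HTZ1 site. The library 2 summit in KSH1, at 434521, was on the outermost base of the gene, on its right side in coordinates. The mean Orc1 summit minus the mean Orc2 and Orc4 summit was -76.8 bp at HHT2-HHF2 and -75.8 bp at HTZ1, to the left in coordinates. It was 57.8 bp at HTA2-HTB2, 15.5 bp at HTA1-HTB1 and -14.8 bp at HHF1-HHT1. The median size of this offset over the 198 sites was 53.8 bp. The smallest distance among the 5 sites was 182 kb to a chromosome end, 20.3 kb to the next site in all 6 lists and 1.99 kb to a tRNA gene. The median gap between a site and the next nearest was 27.7 kb.

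Percentiles were also averaged over the 5 sites, although single sites went in opposite directions (-60.5 points at HHF1-HHT1 and 26.9 at HTA1-HTB1). The mean was 58.3% and 53.4% in the Orc1 libraries, 56.5% and 65.5% in the Orc2 libraries and 58.3% and 57.3% in the Orc4 libraries. That is 55.8% ± 3.45 for Orc1 against 59.4% ± 4.12 for Orc2 and Orc4 (SD, n = 2 and 4), a difference of -3.55 points (exact two-sided permutation p = 0.533 over 15 assignments of the libraries, where 0.0667 is the smallest possible). With so few libraries the test could not pass 0.05, so it does not show that the subunits stood alike.

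Peak width at the 5 sites was also compared. Mean log2 width in bp was 10.03 and 9.96 in the Orc1 libraries, 9.89 and 9.85 in the Orc2 libraries, and 10.23 and 9.90 in the Orc4 libraries. The difference was 0.03 on the log2 scale, a ratio of 1.02 (10.0 ± 0.05 for Orc1 against 9.97 ± 0.17 for the others, SD, n = 2 and 4, exact two-sided permutation p = 0.867). Widths of several peaks in 1 site were added, which brought the weak Orc2 peaks at HHF1-HHT1 into the Orc2 widths. With the width of the strongest peak alone, or with −log10 q of at least 10, the difference was 0.136 (exact two-sided permutation p = 0.533 in both). The sign of the 0.03 turned without Orc1 library 1 (-0.00608) or Orc2 library 2 (-0.0102), and without the wide peaks of Orc4 library 1 it was 0.14 (exact permutation p = 0.1, the smallest the 10 assignments allow).

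**Figure D5:**
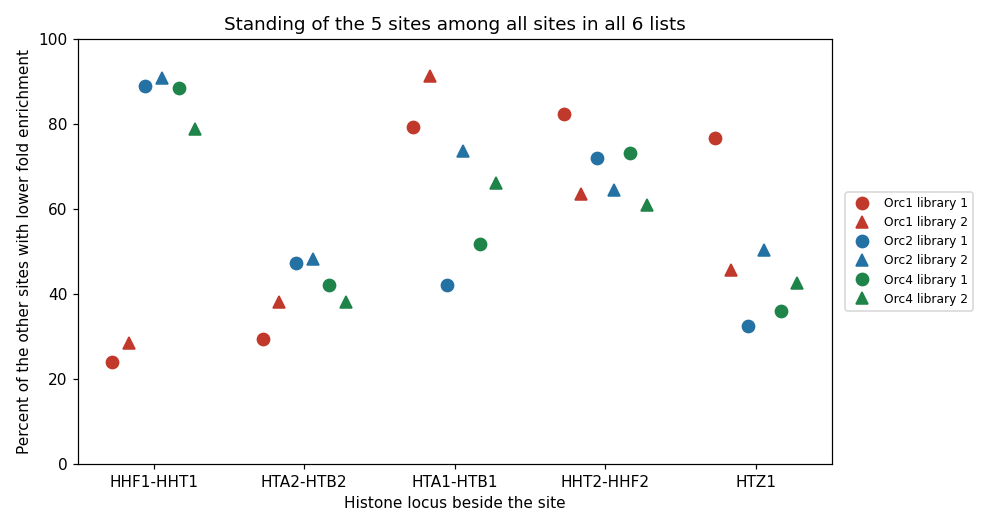
Percent of the other sites in all 6 lists with lower fold enrichment in the same list, for the 5 sites near histone genes in each library (symbols and colours as in the plot of fold enrichment). Both Orc1 libraries have their lowest value at HHF1-HHT1 (23.9% and 28.4%), and their highest is at HHT2-HHF2 for library 1 (82.2%) and at HTA1-HTB1 for library 2 (91.4%).

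Peaks near the histone genes but outside the 5 sites came mostly from 2 libraries. Of the 46 peaks, 34 were in the 5 sites and 12 were not, and those 12 formed 7 regions. Orc4 library 1 held 7 of the 12, Orc2 library 2 held 3, each Orc1 list held 1, and Orc2 library 1 and Orc4 library 2 held none. Over the whole lists, 17.5% and 33.0% of peaks in Orc1 libraries 1 and 2 lay outside sites in all 6 lists, against 31.9% and 34.2% in Orc2 libraries 1 and 2 and 48.0% and 12.9% in Orc4 libraries 1 and 2. Apart from the Orc1 peaks described above, those 12 peaks were weak, with 1.71 to 2.47.

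Some of the weak peaks lay on histone genes. HTB2 was overlapped by peaks of Orc4 library 1 (762328 to 762876, fold enrichment 2.27, −log10 q 5.43) and Orc2 library 2 (762567 to 762849, 2.198, −log10 q 4.66), both with the summit inside the gene. HTA1 was overlapped by a peak of Orc4 library 1 alone (352003 to 352278, 1.93, −log10 q 4.18). Together with HHF1, overlapped in all 6 lists, and HHT1, overlapped in Orc2 library 2 and Orc4 library 1, that made 4 of the 10 histone genes with a peak of at least 1 list, against 11.8% of all genes. HHF1 and HHT1 were overlapped through the same site and are not separate observations. HTB2 and HTA1 entered the count only through the weak peaks given above. This share was not tested. HTA2, HTB1, HHT2, HHF2, HTZ1 and HHO1 had none.

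The remaining weak peaks lay beside other genes. Orc4 library 1 alone had peaks in MSC3, 89 bp from HTA1 (1.71), in TDEL0D04170 (2.29), and between ICE2 and SSN8, 4837 bp from HHT2 (2.14). Orc4 library 1 and Orc2 library 2 both had a peak over the tRNA gene TDEL0Dtrna1T, 2057 and 2127 bp from HHT1, with 2.47 and 2.15 and summits between IPP1 and that gene. With −log10 q of at least 10, each Orc2 and Orc4 list kept 5 peaks within 10 kb of a histone gene, and each Orc1 list kept 6.

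The genes of a fixed histone-related list had shares near sites that were close to those of all genes. The list includes histone chaperones, histone-modifying enzymes, importins, subunits of a chromatin remodeler and regulators of histone genes. It also includes CSE4, for the centromeric H3 variant, which lay 20.1 kb from a site. CSE4 is not among the 10 histone genes examined above. Of the 37 symbols on the list, 35 were found in the annotation. A site in all 6 lists lay within 10 kb of 14 of them (40%, against 44.5% of all genes) and within 1000 bp of 5 (14.3%, against 11.2%), and their median distance was 12.5 kb. The 5 were SCM3 and ASF1, which encode chaperones of centromeric and of newly made H3, POB3 and SPT16, the subunits of the FACT complex, and HAT1, an H4 acetyltransferase. The site at SCM3 (411243 to 412960 of chromosome 3) had 11.5 and 15.3 in the Orc1 lists, 28.3 and 31.2 in the Orc2 lists and 38.6 and 30.9 in the Orc4 lists. At POB3 (157948 to 159131 of chromosome 4) Orc1 had 8.93 and 9.84, Orc2 40.8 and 35.4, and Orc4 37.5 and 21.9. The SPT16 site (1059099 to 1059856 of chromosome 4) was weaker, with 5.03 and 6.49 for Orc1, then 7.91 and 6.79 for Orc2, and 7.92 and 6.21 for Orc4. The genes of the HIR complex, which represses histone genes in S. cerevisiae, lay at various distances from a site. HIR3 was 6.59 kb away, HPC2 16.2 kb, HIR2 17.6 kb and HIR1 29.6 kb.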

How the data were processed

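The data were 6 deposited peak lists, each called by the authors on a single immunoprecipitate. The submitters' processing notes name MACS2 2.2.7.1, Bowtie2 2.3.4.1 and cutadapt 2.10, with settings and build not stated. Each peak carries the authors' fold enrichment (a ratio to the control) and the deposited −log10 p and −log10 q. Peak names contain the unexplained word subsample and a control strain number unlike that in the labels. No read counts were used, so depth is unknown and no counting interval is given.

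Sequence names were matched by number to the chromosomes of ASM24337v1: of summits on a chromosome, 65.1% to 75.6% lay between its genes, against at most 36.5% with genes of any other chromosome. Positions are 1-based. Peaks overlapping by at least 1 bp were joined into 542 regions. Where a list had several peaks in a site, the one with the highest −log10 q gave the value and summit, and widths were summed. Distances run between nearest edges. Libraries were compared by exact two-sided permutation, and the code was checked on planted lists (Python 3.11.15, numpy 2.4.6, pandas 2.3.3). The genes, lists and tests were chosen with earlier results of these data known. Named genes are the 10 members, genes flanking or holding peaks near them, and genes of the histone-related list within 1000 bp of a site. Genes at a member's nearest site, or between the member and that site, are also named. SIR4 and TBF1 are neighbours named outside that rule. The genes of the HIR complex and CSE4 were added after values were seen. Alternatives were −log10 q of at least 10, joining by 50% of the shorter peak, mean summits, windows of 5 and 20 kb, the width of the strongest peak, −log10 q for percentiles, each library left out, and a replicate block.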

Additional observations from a re-analysis of the deposited data

How the results depend on the processing

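The count of 5 loci with a site in all 6 lists within 10 kb stayed at 5 with −log10 q of at least 10, with joining by 50% of the shorter peak, with a window of 20 kb and with each library left out. It was 4 with mean summits and 3 with a window of 5 kb. The median distance over loci, 5240.5 bp, was 5959 bp with mean summits, which lie inside the sites' edges, and 5240.5 to 5270.5 bp with 1 library left out. The 46 peaks became 32 with −log10 q of at least 10, 34 and 48 with windows of 5 and 20 kb, and 40 by summit. The Orc1 difference in log2 width ranged from -0.0102 to 0.137 with 1 library left out, its sign turning without Orc1 library 1 or Orc2 library 2, and the cause was not tested. That difference, 0.03 with summed widths, was 0.136 with the width of the strongest peak and with −log10 q of at least 10. The percentile difference ranged from -5.93 to -0.77. Permuting only within a replicate number (replicate block) gave p = 0.889 for the width difference of 0.03 and p = 0.667 for the percentile difference of -3.55, both exact. The numbers do not pair the libraries by the data: over 198 sites, deviations of same-numbered libraries correlated at 0.06 for Orc1 with Orc2, -0.15 for Orc1 with Orc4 and 0.19 for Orc2 with Orc4. The 2 libraries per subunit and 15 assignments cannot reach 0.05.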
